A study of Gallus gallus with 4 samples.

Results

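Cytosolic ribosomal proteins are the protein components of the ribosomes that translate nuclear transcripts. They were followed here in PR9692, a line derived from a sarcoma of a CC.R1 chicken, grown in 2 stably transfected forms in the same medium at the same temperature. The control form, transfected with a control shRNA (a short hairpin RNA, which silences a gene by RNA interference), is described as metastatic. The other, transfected with an anti-HOPX shRNA, is described as non-metastatic, so the comparison asks whether the transcripts of the translation machinery differ between these forms. HOPX codes for a small homeodomain protein without DNA binding of its own. Each form was measured on 2 Affymetrix chicken arrays, 4 in all. Every sample title marks its array as a numbered biological replicate. The titles do not spell out whether such replicates were separate cultures, or whether a form was a clone or a pool. The p-values therefore measure only the spread between these arrays.

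The members were all probe sets whose single annotated gene symbol is that of a ribosomal protein of the large (RPL) or small (RPS) subunit. The rule found 135 of the 38535 probe sets of the table, for 64 gene symbols. One of the symbols, RPS19BP1, belongs to a nucleolar protein that binds RPS19 and is not part of the ribosome, and its 2 probe sets were counted apart. The other 133 probe sets stand for 63 genes, 86 probe sets of 40 genes in the large subunit and 47 of 23 genes in the small subunit. RPSA and FAU, which the rule also allows, did not occur as symbols in the annotation used. The RefSeq table gives RPSA as a synonym of RPSAP58 and RPL26 as one of RPL26L1, 2 symbols that the rule leaves out, so these may be the cytosolic proteins. A probe set annotated to both GNAL and RPS13 was left out because it names several genes.

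A ribosome joins a small subunit, which reads the mRNA, to a large subunit, which forms the peptide bonds. Each holds ribosomal RNA and a fixed set of proteins, most of them present in a single copy, which cells make in matched amounts. In vertebrates their mRNAs are among the most abundant of growing cells and share a pyrimidine tract at the 5′ end, through which TOR signalling controls their translation. Such control changes the rate of translation and need not change the mRNA level, which is what the arrays measured.

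Values are the log2 values given by the authors, and each difference is anti-HOPX minus control. The processing notes name GCRMA, a method that models background from probe sequence, without stating its role. A probe set was tested where its mean over the 4 arrays was at least 4, and it was called where limma's adjusted p was under 0.05. Of the 133 ribosomal protein probe sets 99 passed this minimum, 65 in the large and 34 in the small subunit. They covered 61 of the 63 genes. The exceptions were RPL3L, known in mammals as the striated muscle paralogue of RPL3, with values from 1.97 to 2.01 on its probe set, and RPS13, whose brightest single-gene probe set read 3.75 to 3.87. The probe set shared by GNAL and RPS13 read 15.50 on both control arrays and 15.71 and 15.66 in the anti-HOPX form. The brightest of 5 RPSAP58 probe sets read 14.73 and 14.66 in control and 14.68 and 14.48 in anti-HOPX cells, differences ran from -0.36 to -0.12 over the 5, and none was called (the lowest limma adjusted p was 0.28). RPL26L1 read 15.02 and 15.06 against 15.23 and 15.26, higher by 0.20 (limma adjusted p = 0.17).

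The ribosomal protein probe sets lay at the top of the scale. The brightest probe set of a gene, which represents it below, had a mean of at least 13 for 55 of the 61 genes and under 13 for 6. Among all 464 tested probe sets with a mean of at least 13, 69 belonged to ribosomal proteins. The highest single value of the table was 15.97, so these signals lay within a few log2 units of its maximum. Signals of different probe sets are not transcript amounts on a shared scale, and no order of the genes by level was drawn from them. The genes lie on 27 chromosomes of the chicken assembly GRCg7b, with at most 7 on one chromosome.

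For the arrays as a whole, the medians over all probe sets ran from 3.12 to 3.15. The brighter probe set of HOPX read 3.23 and 3.72 in control and 3.21 and 3.54 in anti-HOPX cells, near the low end of the scale, so the targeted gene gave no check of the labels. The mesenchymal marker VIM read 15.89 to 15.97 and THY1 11.16 to 11.51, with FN1 at 14.90 to 15.33 on its brightest probe set. The collagen gene COL1A1 rose from 11.16 and 11.11 to 12.97 and 12.76, by 1.73 (limma adjusted p = 0.0020). COL1A2 read 2.39 to 5.36 over all its probe sets. Its brightest, with a mean under 4 and so not tested, read 4.16 and 5.36 in control and 2.79 and 2.39 in anti-HOPX cells. The blood cell markers PTPRC, CD3E and CSF1R read 2.10 to 4.05 on all their probe sets. Of the 14851 probe sets tested, 464 were called higher in anti-HOPX cells and 674 were called lower, together 7.66%.

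Ribosomal protein transcripts differed little between the forms. Of the 99 tested probe sets 2 (2.02%) were called, both higher in the anti-HOPX cells and both in the large subunit, and 0 were called lower. Among all tested probe sets 3.12% were called higher and 4.54% lower, so the share called higher was near its background. In the small subunit 0 of 34 probe sets were called by limma, and 5 had an unadjusted p under 0.05. Over both subunits 13 of the 99, or 13.1%, had an unadjusted p under 0.05, against 25.3% of all tested probe sets. These calls are fragile: 0 ribosomal protein probe sets were called without control replicate 1 or without control replicate 2, 1 large subunit probe set was called higher and 1 lower without anti-HOPX replicate 1, and 4 higher and 2 lower without anti-HOPX replicate 2, where 1 small subunit probe set was also called higher. Without anti-HOPX replicate 2, 728 of all probe sets were called higher and 1006 lower, and the counts were 39 and 115 without control replicate 1 and 34 and 108 without control replicate 2.

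With each gene represented by its brightest probe set, 2 of 61 (3.28%) were called, both higher. Of the 7691 genes tested 8.87% were called, 3.63% higher and 5.24% lower. In the large subunit the 2 were 5.13% of 39 genes. The difference was smaller than 0.2 in size for 48 of the 61 genes, or 78.7%, against 39.2% of all tested genes. None of the 61 differed by 1 or more, as 7.98% of all tested genes did, and 1 differed by 0.5 or more. The 95% interval of the difference lay within 0.5 of 0 for 48 of the 61 genes, or 78.7%, against 16.6% of all tested genes, and within 1 of 0 for all 61. The 61 genes are also brighter, with a median of the means of 14.67 against 8.77 for all tested genes. The trended fit lets the spread, and so the interval, depend on brightness. The part of brightness in these shares was not tested. The plot of differences with their intervals shows every gene of both subunits.

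**Figure D1:**
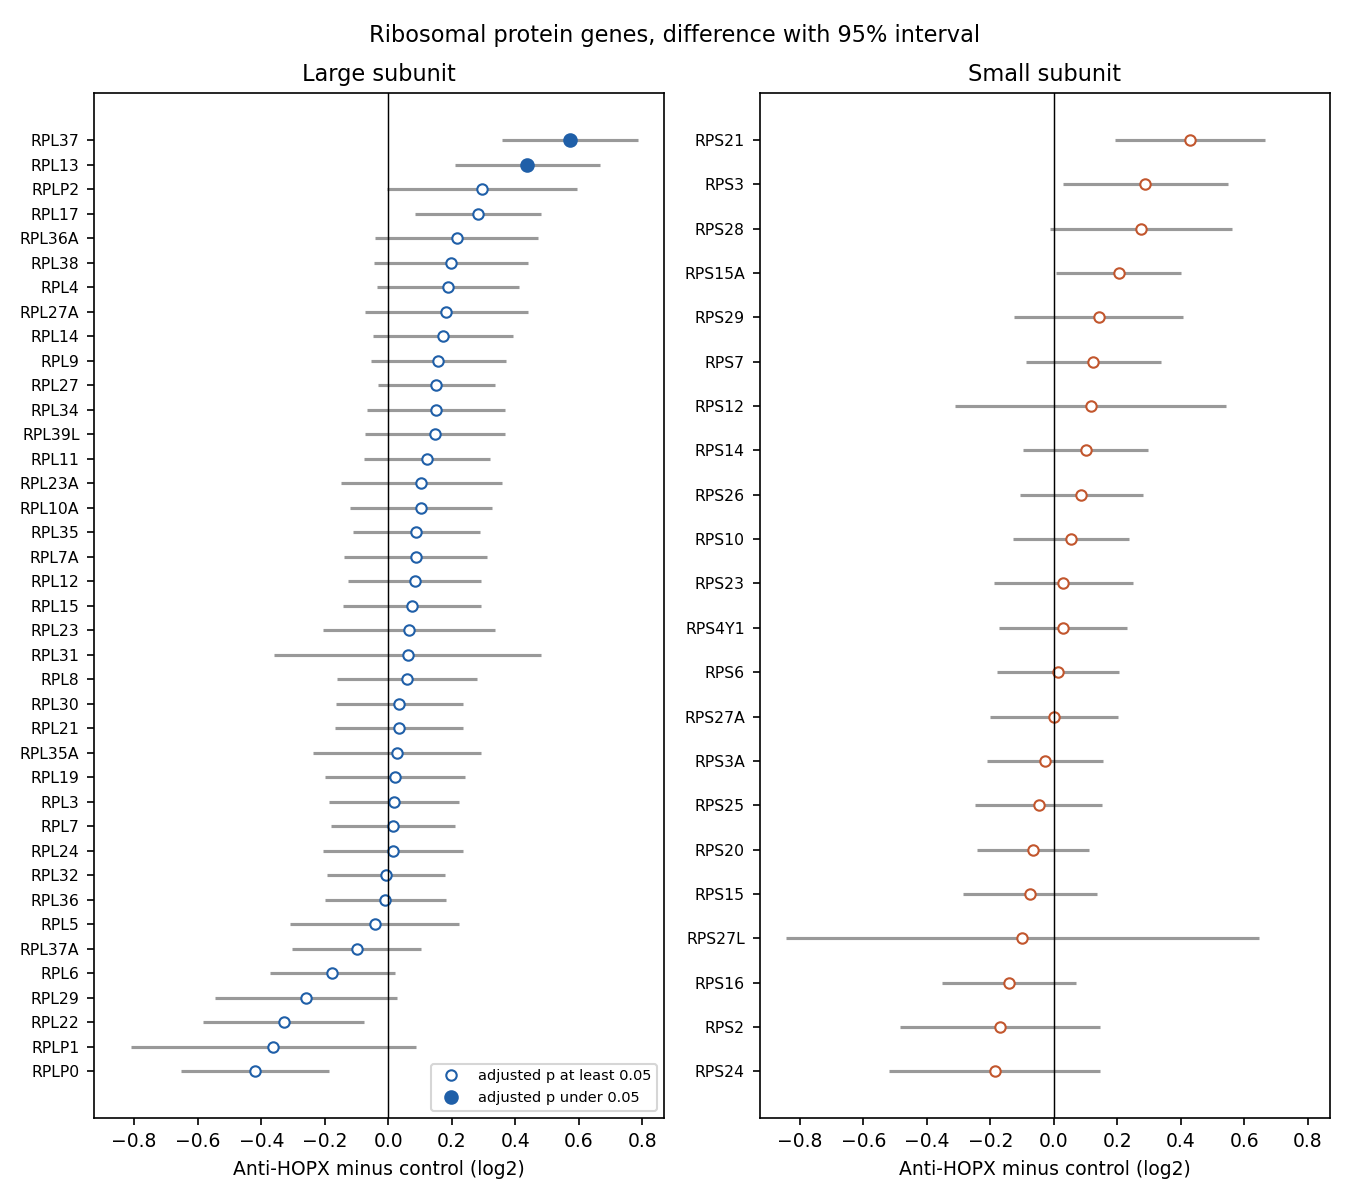
Difference between the forms (x axis, anti-HOPX minus control, log2) for the brightest probe set of each of 39 large subunit genes (left) and 22 small subunit genes (right), ordered by size. Grey lines are limma's 95% intervals and filled points are the genes with an adjusted p under 0.05, RPL37 at 0.57 and RPL13 at 0.44, whereas 48 of the 61 points lie within 0.2 of 0.

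The large subunit had a median difference of 0.07 over its 65 tested probe sets and the small subunit of 0.03 over 34, beside 0.01 over all tested probe sets. The small subunit's median had no stable sign, at -0.00071 when the arrays were quantile normalised again and 0.06 when each was centred on its median, while that of the large subunit was 0.04 and 0.09. The large subunit's median ranged from 0.02 to 0.09 as each array was left out, the lowest without anti-HOPX replicate 2. On single arrays, the median value of the large subunit was 14.17 and 14.19 in control and 14.16 and 14.23 in anti-HOPX cells. That of the small subunit was 14.45 and 14.40 against 14.59 and 14.52. These medians overlapped between the forms in the large subunit and were apart, by less than 0.2, in the small one. With 1 probe set per gene the small subunit medians overlapped too, at 14.69 and 14.71 in control and 14.76 and 14.68 in anti-HOPX cells.

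Both arrays of one form lay beyond both of the other for 38 genes, of which 27 were higher in anti-HOPX cells and 11 were lower. Among all tested genes the arrays were apart in this way for 58.2%, with 30.0% higher and 28.2% lower. For the ribosomal proteins the share was 62.3%, near this background, but it leaned to one side, with 44.3% higher and 18.0% lower. The difference was above 0 in 44 of the 61 genes, or 72.1%, against 52.2% of all tested genes. This lean depended on the scaling, with 37 genes (60.7%) above 0 after quantile normalisation, against 54.1% of all genes, and 47 (77.0%) after median centring, against 55.2%. It was not particular to these genes, as the mitochondrial ribosomal proteins described below leaned the same way. Arrays of the same form also differed little: the median size of the gap between them was 0.06 in control and 0.07 in anti-HOPX cells for the 61 genes, against 0.15 and 0.23 for all tested genes. The difference between forms exceeded both of these gaps in 30 of the 61 genes, of which 19 were in the large subunit. This was 49.2%, beside 45.4% of all tested genes.

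Among the large subunit genes, RPL37, a small zinc-binding protein, read 14.00 and 14.08 in control and 14.64 and 14.58 in anti-HOPX cells. It rose by 0.57 (SE 0.09, limma adjusted p = 0.023), or 1.49-fold, the highest difference among the 61 genes. RPL13 read 13.57 and 13.60 in control and 14.08 and 13.97 in anti-HOPX cells and rose by 0.44 (SE 0.09, limma adjusted p = 0.0497), or 1.35-fold. The arrays of the forms did not overlap at either gene. Without control replicate 1 RPL37 was higher by 0.53 (limma adjusted p = 0.24) and RPL13 by 0.43 (limma adjusted p = 0.32), and without control replicate 2 the values were 0.61 (limma adjusted p = 0.20) and 0.45 (limma adjusted p = 0.33), so neither passed without either control array. RPL13 also did not pass without anti-HOPX replicate 1 (0.38, limma adjusted p = 0.064), and the calls of both were lost without the intensity trend or without the filter on low values. The call of RPL13 was lost as well with a robust variance model (limma adjusted p = 0.05004), after quantile normalisation (limma adjusted p = 0.055) and without the probe set kinds that can match several transcripts (limma adjusted p = 0.052). RPL17, which lies near the exit of the peptide tunnel, missed the threshold, with 14.96 and 14.94 in control against 15.19 and 15.28 in anti-HOPX cells, a difference of 0.28 (limma SE 0.08, adjusted p = 0.098). RPL36A differed by 0.22 (limma adjusted p = 0.26), with values of 14.17 and 14.38 against 14.49 and 14.50.

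The stalk proteins form the arm of the large subunit that recruits the elongation factors, with RPLP0 as its base and pairs of RPLP1 and RPLP2 bound to it. They did not move in the same direction. RPLP0 read 14.57 and 14.70 in control and 14.16 and 14.26 in anti-HOPX cells, the lowest difference of the 61 genes at -0.42 (SE 0.09, limma adjusted p = 0.057). Its arrays did not overlap, and leaving out each array gave differences from -0.48 to -0.36. It did not pass without control replicate 1, control replicate 2 or anti-HOPX replicate 1, and passed without anti-HOPX replicate 2. RPLP0 passed with a mean of at least 6 (limma adjusted p = 0.032), after quantile normalisation (limma adjusted p = 0.045) and with 1 probe set per gene (limma adjusted p = 0.042). It also passed with the replicate block (limma adjusted p = 0.013). It did not pass without the filter on low values (limma adjusted p = 0.12) or without the intensity trend (limma adjusted p = 0.18). Nor did it with the robust variance model (limma adjusted p = 0.055) or after median centring (limma adjusted p = 0.071). RPLP1 read 14.02 and 13.97 against 13.89 and 13.37, a difference of -0.36 (limma SE 0.18, adjusted p = 0.28). Its value rested on anti-HOPX replicate 2, without which the difference was -0.10, and without anti-HOPX replicate 1 it was -0.62 and passed (limma adjusted p = 0.021). RPLP2 read 11.89 and 11.94 against 12.11 and 12.31, a difference of 0.29 (limma SE 0.12, adjusted p = 0.20), with higher values on both anti-HOPX arrays.

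RPL22 read 14.17 and 14.36 in control and 13.91 and 13.96 in anti-HOPX cells, a difference of -0.33 (limma SE 0.10, adjusted p = 0.12), with no overlap between the forms. In mouse, RPL22 is known to lower the mRNA of its paralogue RPL22L1. RPL22L1 is not among the members, and its brightest probe set read 11.04 and 10.28 in control against 12.04 and 11.81 in anti-HOPX cells, a rise of 1.27 (SE 0.26, limma adjusted p = 0.049). A further probe set of RPL22L1 gave -0.30 (limma adjusted p = 0.46). The last, with a mean under 4 and so not tested, was also lower, with 3.63 and 3.58 in control against 2.95 and 3.12 in anti-HOPX cells. The rise did not pass without either control array in turn, with 0.89 without control replicate 2 (limma adjusted p = 0.21) and 1.64 without control replicate 1 (limma adjusted p = 0.067), nor without anti-HOPX replicate 1 (1.15, limma adjusted p = 0.077). It was also lost without the filter on low values (limma adjusted p = 0.19), without the intensity trend (limma adjusted p = 0.075), with the robust variance model (limma adjusted p = 0.052) and after quantile normalisation (limma adjusted p = 0.051). No link between the levels of these genes was tested.

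RPL29, a protein also known to bind heparin, read 12.67 and 12.77 against 12.56 and 12.37 on its brightest probe set, a difference of -0.26 (limma adjusted p = 0.23). RPL6 differed by -0.18 (limma adjusted p = 0.24), with 14.93 and 14.91 in control and 14.72 and 14.77 in anti-HOPX cells. RPL5 and RPL11 join the 5S ribosomal RNA and, when free, bind the p53 ligase MDM2 in mammals. RPL5 read 13.49 and 13.69 against 13.56 and 13.54, with overlapping arrays and a difference of -0.04 (95% interval -0.31 to 0.22). RPL11 read 14.80 and 14.74 against 14.87 and 14.91, a difference of 0.12 (95% interval -0.08 to 0.32). RPL3, which lies by the peptide-bond centre, differed by 0.02 (95% interval -0.19 to 0.22) and RPL7 by 0.02 (95% interval -0.18 to 0.21), though the sign of RPL7 turned when the arrays were quantile normalised again. The gene annotated as RPL39L differed by 0.15 (95% interval -0.07 to 0.37), with 14.21 and 14.19 against 14.29 and 14.41.

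**Figure D2:**
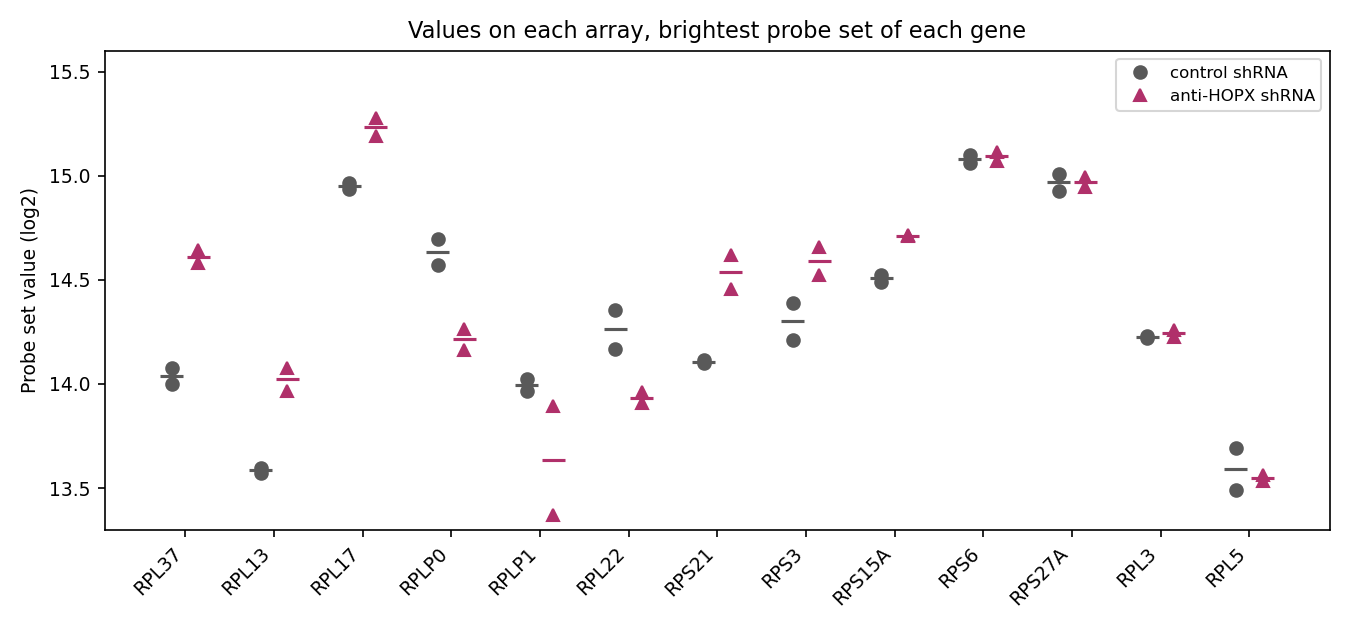
Value on each of the 4 arrays (y axis, log2, not starting at 0) of the brightest probe set of 13 ribosomal protein genes, with control arrays as grey circles, anti-HOPX arrays as red triangles and short lines at the mean of each form. RPL37 goes from 14.00 and 14.08 to 14.64 and 14.58 and RPLP0 from 14.57 and 14.70 to 14.16 and 14.26, while the arrays overlap for RPS6, RPS27A, RPL3 and RPL5, and the anti-HOPX arrays of RPLP1 lie far apart.

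In the small subunit the highest difference was that of RPS21, which read 14.11 and 14.10 in control and 14.62 and 14.46 in anti-HOPX cells. It differed by 0.43 (SE 0.09, limma adjusted p = 0.055) and missed the threshold, and leaving out each array gave 0.35 to 0.51. It did not pass without control replicate 1, control replicate 2 or anti-HOPX replicate 1, and passed without anti-HOPX replicate 2. RPS21 passed with a mean of at least 6 (limma adjusted p = 0.032), after median centring (limma adjusted p = 0.046) and with 1 probe set per gene (limma adjusted p = 0.042). It also passed with the replicate block (limma adjusted p = 0.015). It did not pass without the filter on low values (limma adjusted p = 0.12) or without the intensity trend (limma adjusted p = 0.17). Nor did it with the robust variance model (limma adjusted p = 0.054) or after quantile normalisation (limma adjusted p = 0.065). RPS3, which lies at the mRNA entry channel and also has a role in DNA repair, read 14.21 and 14.39 against 14.52 and 14.66, a difference of 0.29 (limma SE 0.10, adjusted p = 0.16). RPS28 read 12.34 and 12.51 against 12.76 and 12.64, a difference of 0.27 (limma SE 0.11, adjusted p = 0.21). The arrays of the forms were apart at all 3 genes. RPS15A differed by 0.20 (limma adjusted p = 0.18), with 14.49 and 14.52 against 14.72 and 14.71, and RPS29 by 0.14 (limma adjusted p = 0.47), with overlapping arrays.

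At the lower end, RPS24 differed by -0.19 (95% interval -0.52 to 0.15), with 13.82 and 14.16 in control and 13.78 and 13.82 in anti-HOPX cells. The gap between the control arrays of RPS24 was the widest of the 61 genes, at 0.34, and the difference was -0.36 without control replicate 1 and -0.02 without control replicate 2. RPS2, which lines the mRNA entry channel, read 14.82 and 14.87 against 14.84 and 14.51, a difference of -0.17 (95% interval -0.48 to 0.15), which was -0.0059 without anti-HOPX replicate 2 and -0.33 without anti-HOPX replicate 1. RPS16 differed by -0.14 (95% interval -0.35 to 0.07) and RPS15 by -0.07 (95% interval -0.28 to 0.14), and both had all anti-HOPX values below the control values.

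RPS6, the ribosomal substrate of the S6 kinases, read 15.06 and 15.10 in control and 15.07 and 15.11 in anti-HOPX cells, a difference of 0.01 (95% interval -0.18 to 0.20). RPS27A, which is made as a fusion with ubiquitin, read 14.93 and 15.01 against 14.95 and 14.99, a difference of 0.0017 (95% interval -0.20 to 0.20). The signs of both turned when the arrays were quantile normalised again. RPS14, whose loss of 1 copy marks the 5q- syndrome of human bone marrow, differed by 0.10 (95% interval -0.10 to 0.30). RPS27L, a paralogue of RPS27 that p53 induces in human cells, read 11.31 and 11.00 in control and 11.49 and 10.62 in anti-HOPX cells, a difference of -0.10 (95% interval -0.84 to 0.65). Its anti-HOPX arrays lay 0.87 apart, the widest gap within a form among the 61 genes, and its sign turned without control replicate 1 (0.06) and without anti-HOPX replicate 2 (0.34). RPS19BP1, counted apart, read 11.76 and 11.67 against 11.38 and 11.35, a difference of -0.35 (limma SE 0.11, adjusted p = 0.12), and on its dimmer probe set one of -0.48 (limma adjusted p = 0.10).

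Several probe sets per gene allowed a description within genes. For 22 genes more than 1 probe set was tested, and all tested probe sets had the same sign in 13 of them and mixed signs in 9. The share with the same sign was not taken over all genes, so this count cannot check the values of the 22 genes. The brightest probe sets of these genes had a median difference of 0.12 in size, and their other probe sets one of 0.14. Those other probe sets had a median of 0.09 in size where their own mean was at least 13 (14 probe sets) and of 0.18 where it was lower (24 probe sets). In 14 of the 22 genes some other probe set differed by more than the brightest, and in 8 the brightest differed by more than all others. As some genes had several other probe sets to set against 1, these counts cannot show that the brightest understate differences.

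RPL38, a protein that mouse embryos need for the translation of a subset of Hox mRNAs, was chosen after its values were seen because its probe sets disagreed in size. Its brightest probe set read 14.81 and 14.81 in control and 15.10 and 14.90 in anti-HOPX cells, a difference of 0.20 (limma SE 0.10, adjusted p = 0.27). A probe set of lower signal read 13.45 and 13.43 against 14.12 and 13.80, a difference of 0.53 (limma SE 0.13, adjusted p = 0.071), and another read 13.36 and 13.32 against 14.16 and 13.67, a difference of 0.57 (limma SE 0.17, adjusted p = 0.11). All 4 tested probe sets of RPL38 were higher on both anti-HOPX arrays, and none passed the test. RPS14 also gave larger values below the top of the scale, where its 4 tested probe sets differed by 0.10 at a mean of 14.69, 0.44 at 10.99, 0.12 at 10.46 and 0.55 at 9.63. A dim probe set of RPL29 read 6.08 and 6.46 in control and 5.00 and 5.51 in anti-HOPX cells, a difference of -1.01 (limma SE 0.27, adjusted p = 0.085), the only tested ribosomal protein probe set with a difference of 1 or more in size. RPLP1 went the other way, with -0.36 on its brightest probe set and -0.23 and -0.0065 on its dimmer tested ones. Whether signals near the top of the scale understate differences was not tested.

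**Figure D3:**
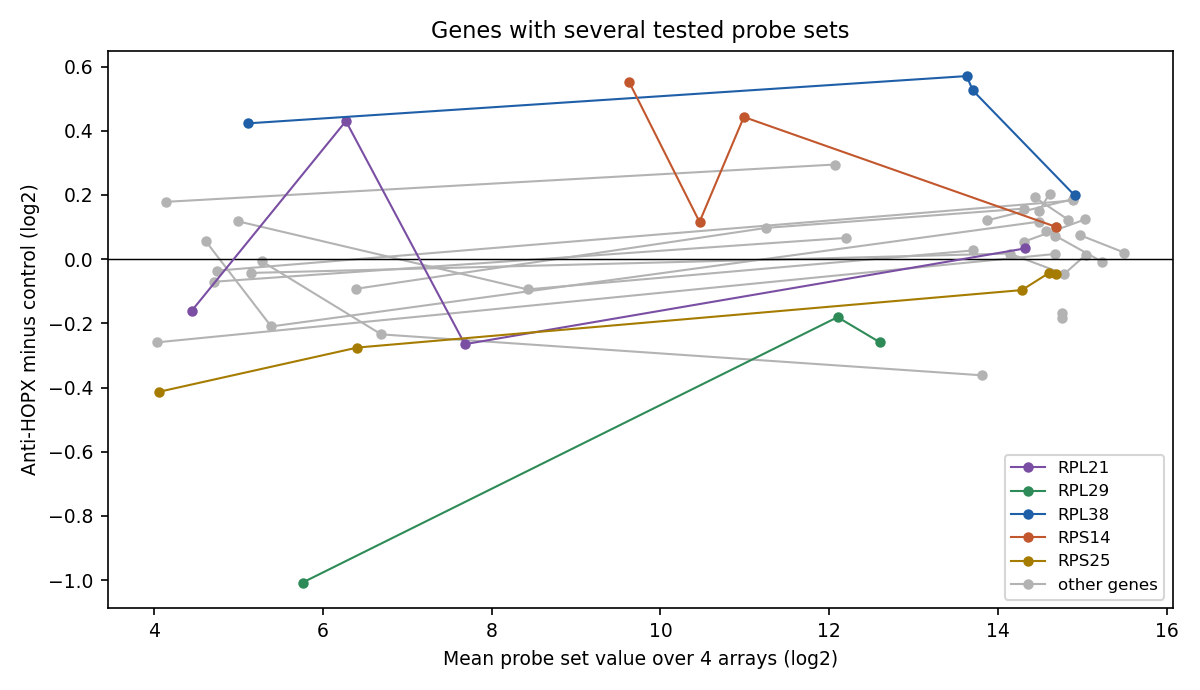
Difference between the forms (y axis, anti-HOPX minus control, log2) against mean value over 4 arrays (x axis, log2) for every tested probe set of the 22 genes with more than 1, with lines joining the probe sets of a gene. RPL38 goes from 0.20 at its brightest probe set to 0.57, RPS14 from 0.10 to 0.55 and RPL29 from -0.26 to -1.01, while most grey points at a mean above 13 lie within 0.2 of 0.

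Other bright probe sets also differed less than dim ones, but by more than the ribosomal proteins. With a mean of at least 13, 69 ribosomal protein probe sets had a median difference of 0.10 in size, and 82.6% of them lay within 0.2 of 0. The 395 other probe sets of such a mean had a median of 0.16 in size, with 59.2% within 0.2. Of those others, 12 were called higher and 15 lower, together 6.84%, against 2 of the 69. Below a mean of 13 the 30 ribosomal protein probe sets had a median of 0.18 in size, against 0.28 for the 14355 others. The groups were not matched in brightness on either side of this cut. At 13 or more the ribosomal protein probe sets had a median of the means of 14.67, against 13.60 for the others. Below 13 the ribosomal protein probe sets were the dimmer group by this median. No test was made of these contrasts, which describe the 4 arrays, and the part of brightness in them was not tested.

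Of the 34 ribosomal protein probe sets under the mean of 4, 3 differed by 0.5 or more. One for RPL9 read 3.39 and 2.94 in control and 4.42 and 4.43 in anti-HOPX cells, although the brightest probe set of RPL9 differed by 0.16 (95% interval -0.06 to 0.37). One for RPL21 read 4.03 and 4.94 against 3.41 and 2.51, although its brightest differed by 0.03 (95% interval -0.17 to 0.24). The one for RPL27 had overlapping arrays. Values this low are dominated by background, and no fold is given.

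The genes that make and use ribosomes were described for comparison, each by its brightest probe set. Mitochondrial ribosomal proteins, which translate the few mitochondrial mRNAs, had a median difference of 0.16 over 62 genes, with 41.9% within 0.2 of 0. Of these 2 rose, 0 fell and 60 others were not called, with 18 (29.0%) at an unadjusted p under 0.05, beside 27.7% of all tested genes. The arrays of the forms were apart for 62.9% of the 62 genes, with 32 higher in anti-HOPX cells and 7 lower. The difference was above 0 for 69.4%. Among all tested genes 58.2% were apart and 52.2% were above 0. MRPS12 read 8.21 and 8.34 in control and 9.56 and 9.32 in anti-HOPX cells and rose by 1.16 (limma adjusted p = 0.020), and MRPL18 rose by 0.52 (limma adjusted p = 0.038). Translation factors were taken by symbol, so their list includes EEF1AKMT1 and EIF4ENIF1, which act on such factors. Of its 45 genes 0 rose and 0 fell by limma, with 5 (11.1%) at an unadjusted p under 0.05 and a median of -0.01. These counts are read against the 3.63% of genes called higher and 5.24% called lower overall.

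Of 61 ribosome biogenesis factors, which process ribosomal RNA or help to assemble the subunits, 1 rose and 1 fell, with a median of -0.01. UTP6, of the early small subunit assembly complex, rose by 1.06 (limma adjusted p = 0.026), from 11.00 and 10.97 to 11.83 and 12.27. GNL3, a nucleolar GTP-binding protein, fell by 0.79 (limma adjusted p = 0.027), from 12.02 and 12.03 to 11.11 and 11.35. Among 14 genes of RNA polymerase I, its factors and the MYC family, 2 (14.3%) rose and 0 fell, with a median of -0.0029. Of all tested genes 3.63% were called higher and 5.24% lower. MYCN, a transcription factor known to activate ribosomal genes in neuroblastoma, read 6.90 and 6.75 in control and 10.02 and 9.14 in anti-HOPX cells and rose by 2.76 (SE 0.31, limma adjusted p = 0.010). MYC, the other MYC family gene of the list, was not called and differed by -0.08, with its anti-HOPX arrays 1.07 apart. POLR2L, a small subunit shared by the RNA polymerases, rose by 1.33 (limma adjusted p = 0.011). The 14 genes listed for TOR and S6 kinase signalling include PDK1, which is the symbol of a pyruvate dehydrogenase kinase. Of the 14, 0 rose and 0 fell by limma, with 3 (21.4%) at an unadjusted p under 0.05. None of these 6 called genes passed without control replicate 1 (MYCN 2.83, limma adjusted p = 0.10) or without control replicate 2 (MYCN 2.68, limma adjusted p = 0.12), nor without the filter on low values. Without the intensity trend the calls of GNL3 (limma adjusted p = 0.060), UTP6 (limma adjusted p = 0.051) and MRPL18 (limma adjusted p = 0.11) were lost too.

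The ribosome biogenesis factors differed between the anti-HOPX arrays. The median size of their gap was 0.44 between these arrays and 0.14 between the control arrays, and that of their difference between the forms was 0.15. On anti-HOPX replicate 2 they were higher than on replicate 1 for 60 of 61 genes, with a median gap of 0.44, and 50 of the 61 gaps were 0.2 or more. On the control arrays 51 of 61 were higher on replicate 2, with a median gap of 0.13. For the ribosomal proteins the same gaps had medians of 0.02 in anti-HOPX and 0.03 in control cells, and 6 of 61 anti-HOPX gaps reached 0.2. Over all tested genes the medians were 0.02 in anti-HOPX and -0.01 in control cells. Anti-HOPX gaps also reached 0.2 for 26 of 62 mitochondrial ribosomal proteins and 26 of 45 translation factors. They did so for 10 of 14 genes of the RNA polymerase I and MYC list and 6 of 14 of the TOR list. The lists differ in brightness, with a median of the means of 14.67 for the ribosomal proteins and 10.83 for the biogenesis factors. The 30 ribosomal protein probe sets with a mean under 13 had median gap sizes of 0.17 in control and 0.25 in anti-HOPX cells, against 0.06 and 0.06 for the 69 at 13 or more. Among other probe sets under 13 these sizes were 0.17 and 0.25. The part of brightness in the contrast between the lists was not tested.

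**Figure D4:**
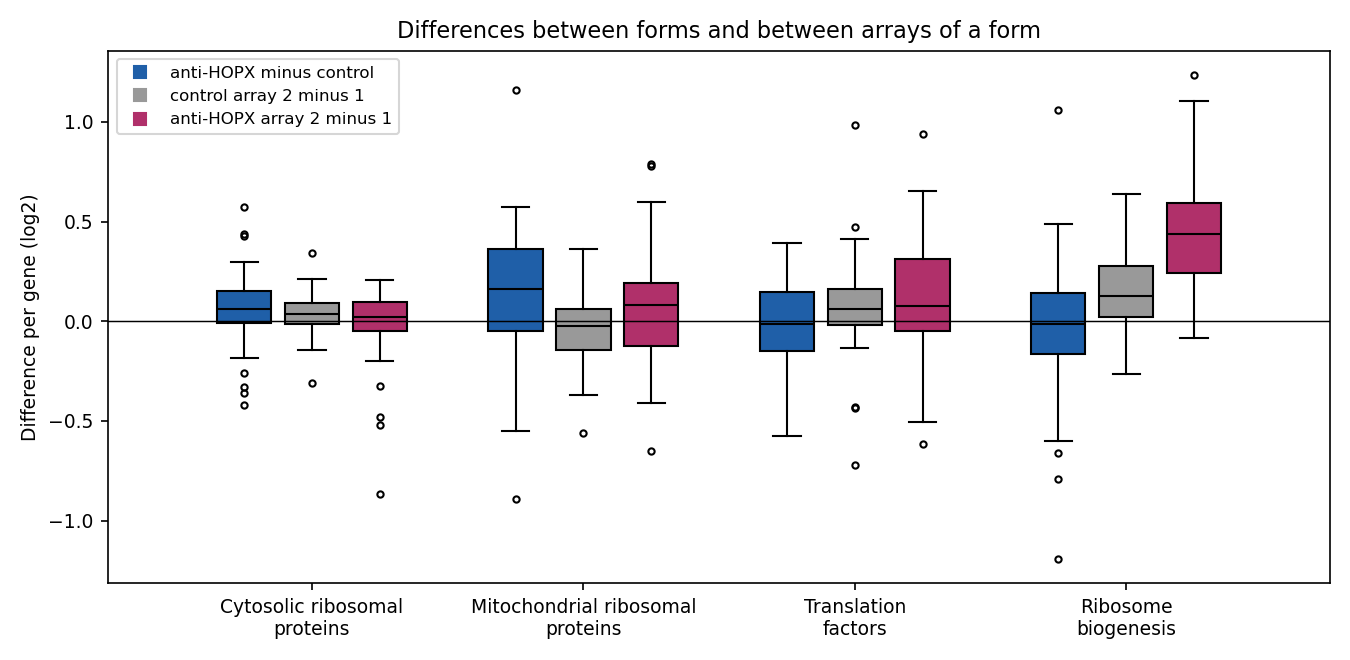
Difference per gene (y axis, log2) between the forms (blue), between the control arrays (grey) and between the anti-HOPX arrays (red) for 61 cytosolic ribosomal proteins, 62 mitochondrial ribosomal proteins, 45 translation factors and 61 ribosome biogenesis factors. Boxes span the quartiles with the median as a line, whiskers reach the last gene within 1.5 box lengths and points are genes beyond. The red box of ribosome biogenesis, with a median of 0.44, lies above 0, whereas all boxes of the cytosolic ribosomal proteins are narrow and have medians of 0.06, 0.03 and 0.02.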

How the data were processed

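Total RNA of cultured cells was labelled with biotin and hybridised to Affymetrix chicken arrays, per the labels' protocols. The authors deposited 1 log2 value per array for each probe set, and GCRMA and Partek 6.4 are named without roles per the submitters' processing notes. GCRMA corrects background from probe sequence and normalises arrays to each other, which removes overall differences in RNA amount and narrows dim signals. Values ran from 0.75 to 15.97, as log2 values of arrays do. How the arrays were scanned is not given in the sources used here.

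Leaving aside 96 Affymetrix controls, limma 3.58.1 (R 4.3.3) was run with lmFit and a trended eBayes, two-sided, on the 14851 probe sets with a mean of at least 4, with p-values adjusted by the Benjamini-Hochberg method over all of them. The fit had 2 residual degrees of freedom and a prior of 3.54. An exact permutation test of 2 arrays against 2 cannot go below p = 0.33. Groups follow the sample titles. Genes were named from the platform annotation, and all 63 member genes were found by identifier in a RefSeq table for GRCg7b under the same symbol. The brightest probe sets of 38 of the 61 genes are of kinds (_s_at, _x_at, _a_at) that can match several transcripts, so near-identical copies are not told apart there.

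The members and lists were chosen with earlier results of these data known. Named genes are those called, the 5 highest and 5 lowest of each subunit, members with known roles outside the ribosome, paralogue pairs, RPS19BP1 and, per other list, up to 3 called each way. RPL38, RPL9, RPL21, RPL27, RPSAP58 and RPL26L1 were added after their values were seen. Promoter sequences were not analysed here. Alternatives were other filters, variance models, normalisations, thresholds, probe set choices, a block for the replicate number, and the fits without each array. The fit was tested on simulated data.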

Additional observations from a re-analysis of the deposited data

How the results depend on the processing

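Of the 448 values of the 36 genes followed under 13 alternatives, 385 kept both direction and side of the threshold, 40 lost the call, 13 gained one and 10 changed sign. The calls gained were those of RPL17, RPL22, RPLP0, RPLP1 and RPS21. Of the 28 ribosomal protein genes followed 2 were called in the main fit, so most values that kept their side of the threshold were of genes that stayed uncalled. The 40 losses could fall only on called genes. Without a filter on low values none of the called genes followed kept its call. The number of ribosomal protein genes within 0.2 of 0, an alternative chosen after seeing the data, was 44 to 49 of 61 except without anti-HOPX replicate 1 (41) and with only probe sets not ending in _x_at, _s_at or _a_at, where 18 of 23 remained. Large subunit probe sets called higher, 2 as reported, were 0 without a filter, without the intensity trend, at an adjusted p under 0.01 and with a 2-fold minimum, 1 with the robust model, after quantile normalisation and without the shared kinds of probe set, and 4 with a mean of at least 6. Those called lower, 0 as reported, were 1 with a mean of at least 6, after quantile normalisation and with 1 probe set per gene. In the small subunit 1 was called higher with a mean of at least 6, after median centring and with 1 probe set per gene. Leaving out each array gave 0 to 4 large subunit probe sets higher, 0 to 2 lower and 0 to 1 small subunit probe sets higher, and a large subunit median of 0.019 to 0.091. Over all probe sets it gave 34 to 728 higher and 108 to 1006 lower, against 80 and 194 without a filter and 77 and 170 at an adjusted p under 0.01. With the replicate block, 1149 were called higher and 1549 lower, with 4 large subunit probe sets higher, 3 lower and 3 small subunit ones higher. The replicate numbers are labels only. Over the tested probe sets, the deviations of control replicate 1 and anti-HOPX replicate 1 from the mean of their form had a correlation of 0.25. With 2 arrays per form, replicate 2 gives the same value. The labels state no pairing, so the block stands as an alternative. Signs turned after quantile normalisation for RPL7 (-0.012), RPS27A (-0.027) and RPS6 (-0.0049), and on leaving out arrays for RPL5 (-0.14 to 0.057), RPS27A (-0.038 to 0.042), RPS27L (-0.53 to 0.34) and RPS6 (-0.0082 to 0.034). The causes were not tested. With 2 arrays per form, small differences at bright probe sets are bounded only by the intervals given.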
